A study of Mus musculus with 20 samples.

Results

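Livers of 4 mouse fetuses carried by Ppara knockout dams were compared with livers of 4 fetuses carried by Ppara heterozygous dams, and all 8 fetuses were labelled as heterozygous for Ppara. They are 8 of the 20 bulk RNA sequencing libraries of a study of the fetal liver under maternal nutritional stress. In both groups the strain is given as C57BL/6, the stage is E17.5, every dam had been fasted for 24 h, and 2 fetuses were female and 2 male. The comparison asked what the genotype of the mother does to a fetus whose own genotype is held constant. The groups are called knockout-dam livers (KODam_HetFetus) and heterozygous-dam livers (HetDam_HetFetus). Knockout-dam fetuses 1 and 2 share a number in their sample descriptions that no label explains, so they are presumed littermates and the group may hold 3 litters. Each of the other 6 fetuses has its own number. Where the deletion lies in the gene, how the dams were mated and what the dams ate before the fast are not stated in the labels. The design text of the series speaks of wild-type dams and fetuses, whereas the genotype labels of the control group say heterozygous for both, and the groups follow the genotype labels.

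PPARA is the nuclear receptor that senses fatty acids in the fasted liver, pairs with retinoid X receptors and switches on genes of fatty acid oxidation, ketone body formation and lipid droplet turnover. A fasted mother releases fatty acids from fat and turns them into ketone bodies, and a mother without PPARA does this poorly. In late gestation the fetal liver is still a site of blood cell formation, and its hepatocytes are only beginning to express the genes of adult liver function. A heterozygous fetus keeps a working copy of the gene and can mount a PPARA response of its own.

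Values are log2 expression, and differences are knockout-dam minus heterozygous-dam livers on the log2 scale, with the standard error and n = 4 livers per group. Each set of 4 values runs through replicates 1 to 4 of its group. A gene was called when its limma adjusted p was under 0.05. Of 45802 gene entries, 11807 had a log2 value of at least 0 in at least 4 of the 20 libraries, and 11800 of these could be tested. With a knockout dam 3117 genes were called higher (26.4% of those tested) and 1483 lower (12.6%), which makes 4600 (39.0%). All 4 knockout-dam livers stood above all 4 heterozygous-dam livers for 2880 genes (24.4%) and below them for 1390 (11.8%). The calls were at least 2-fold for 636 rises and 536 falls, and the median size was 0.67 for a rise and -0.84 for a fall. Any count of a gene group has to be read against these shares.

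The deposited scale sets part of the balance between rises and falls. The median difference of all tested genes was 0.14, and trimmed-mean scaling brought it to 0.02, with 2218 genes called higher and 2228 lower (49.9% of the calls higher, against 67.8% as deposited). Quantile normalization over the tested genes alone called 2452 higher and 2003 lower (55.0% higher). Single libraries also stand apart. Heterozygous-dam liver 4 had 20 of 31 markers of skeletal and cardiac muscle at a log2 value of at least 0, against 4 to 8 in the other 7 livers, and heterozygous-dam liver 1 had 14 of 32 markers of stomach and intestine, against 8 to 10. The summed linear values of the muscle markers were 72.9 to 90.2 in knockout-dam and 71.4 to 302.9 in heterozygous-dam livers, and those of the stomach and intestine markers 171.6 to 279.4 and 383.2 to 821.5. Globin genes made up 31.4 to 35.5% of the summed linear values in knockout-dam and 26.1 to 35.0% in heterozygous-dam livers. Alb, the albumin gene that defines hepatocytes, was at 14.93, 14.52, 15.38 and 15.45 in knockout-dam livers, against 15.36, 14.89, 15.32 and 16.15 in heterozygous-dam livers, so that hepatocyte RNA was abundant in all 8 livers and the groups overlapped. Without the littermates 2323 genes were called higher and 524 lower.

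**Figure D1:**
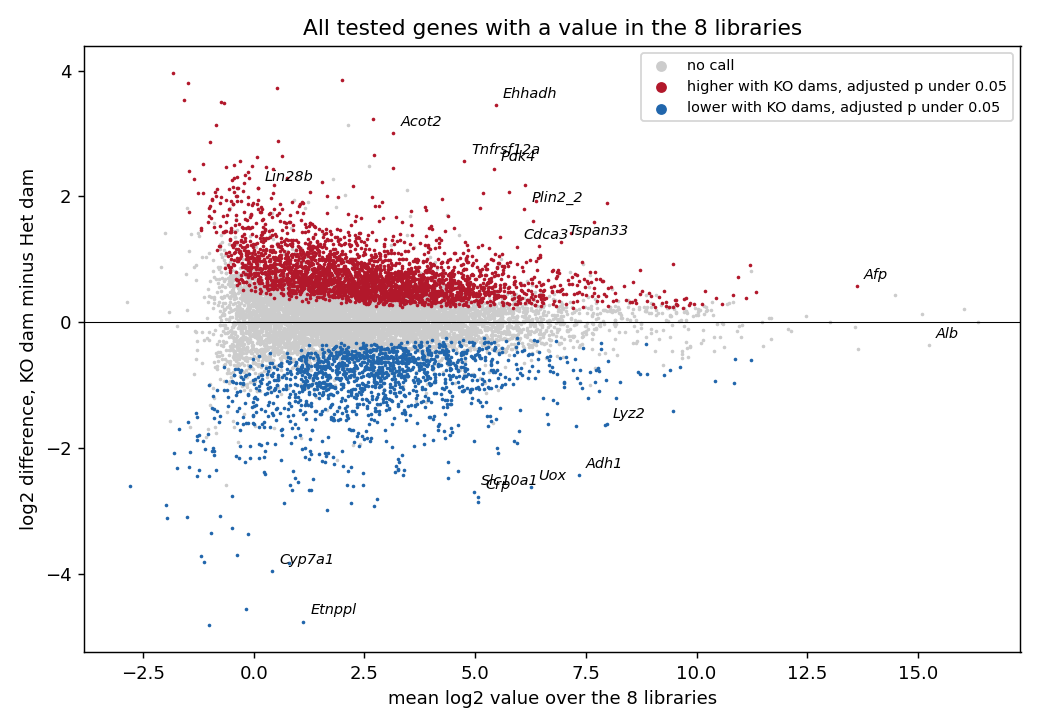
Mean log2 value over the 8 livers (horizontal axis) against the log2 difference of knockout-dam minus heterozygous-dam livers (vertical axis), 1 point per tested gene with a value in all 8. Red points are genes called higher with knockout dams, blue points genes called lower and grey points genes without a call. Ehhadh at 3.45 lies far above genes of a like level, and Adh1 at -2.43 and Etnppl at -4.76 far below.

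Ppara itself was not called on the deposited values. Its log2 values were 2.17, 1.81, 3.05 and 3.22 in knockout-dam livers, against 2.94, 2.86, 3.47 and 3.25 in heterozygous-dam livers, a difference of -0.56 ± 0.26 (adjusted p = 0.0971). It was called lower after trimmed-mean scaling (-0.69, adjusted p = 0.0261) and without knockout-dam liver 3 (-0.73, adjusted p = 0.0468) or 4 (-0.78, adjusted p = 0.0264). With floxed-dam livers as controls it was also called lower (-0.74, adjusted p = 0.0386), but those dams and fetuses are labelled wild type. That change of controls therefore changes the fetal genotype as well, here and in the lists below. Without the littermates the difference was 0.006 (adjusted p = 0.988). The littermates were the lowest of the 8 livers, and the other 2 knockout-dam livers lay within the range of the heterozygous-dam livers. Since the fetuses carry the same genotype in both groups, these values check no label. Of 20 receptors, partners and coregulators of the PPAR family, 5 rose and 0 fell, a share of rises near the 26.4% of all genes. Nrip1, a corepressor of nuclear receptors in metabolism, had values of 1.39, 1.35, 0.56 and 1.06 in knockout-dam livers, against -0.63, -1.73, -0.49 and -0.01 in heterozygous-dam livers and rose by 1.80 ± 0.37. Sirt1, a deacetylase that acts on PPARA's coactivator, rose by 0.88 ± 0.19. The groups did not overlap for either gene. The list gave 9 rises without heterozygous-dam liver 3 and 3 without the littermates.

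**Figure D2:**
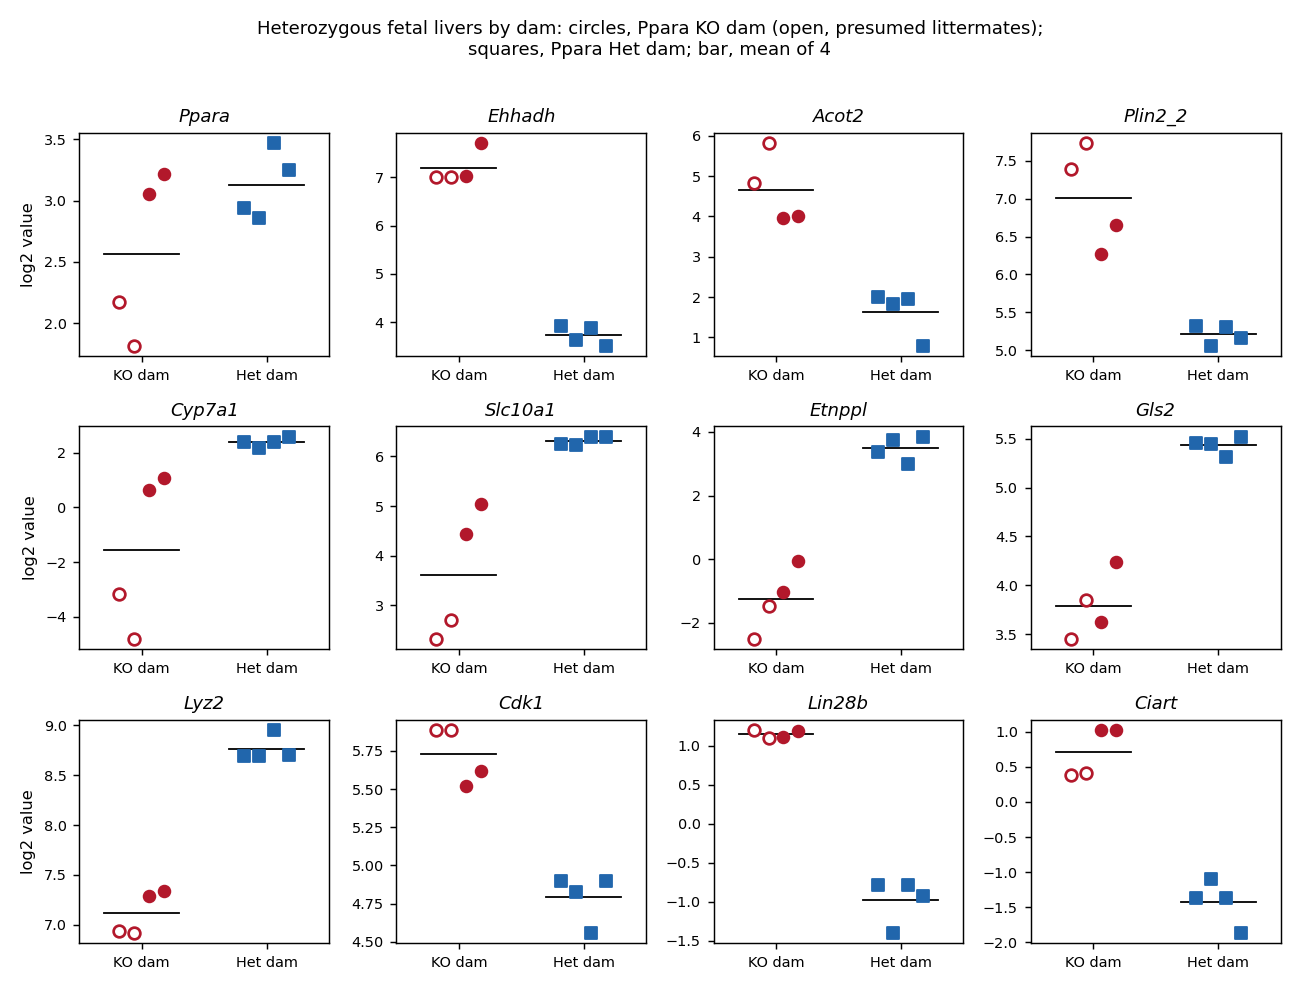
Log2 values (vertical axes) of 12 genes in each liver. Circles are knockout-dam livers, open for the presumed littermates, squares are heterozygous-dam livers, and bars are means of 4. The groups overlap for Ppara only, and the littermates lie lowest for Cyp7a1, Slc10a1 and Etnppl.

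Fatty acid oxidation genes did not move as a block. Several of the strongest rises were in genes that PPARA is known to control in liver, most of them peroxisomal or linked to acyl-CoA turnover, while other enzymes of the same pathways fell. Of 27 tested genes of peroxisomal and microsomal fatty acid oxidation, 4 rose and 8 fell, with a median of -0.09. Ehhadh, the peroxisomal bifunctional enzyme (chromosome 16, 21761285 to 21787834, GRCm38.p6), had log2 values of 7.001, 7.01, 7.04 and 7.71 in knockout-dam livers, against 3.93, 3.63, 3.88 and 3.50 in heterozygous-dam livers. The level was 11-fold higher in knockout-dam livers, all 4 of which lay above all 4 heterozygous-dam livers. Acaa1b, the peroxisomal thiolase, had 3.73, 3.74, 4.19 and 4.55 in knockout-dam livers, against 2.63, 2.54, 2.25 and 2.12 in heterozygous-dam livers and rose by 1.67 ± 0.29 (adjusted p = 4.04e-04). Crot, which hands shortened acyl chains from the peroxisome to carnitine, had 5.03, 5.45, 4.88 and 5.56 in knockout-dam livers, against 3.45, 2.91, 3.58 and 4.21 in heterozygous-dam livers and rose by 1.69 ± 0.30. Pex11a, a peroxisome division factor, rose by 1.15 ± 0.25. None of these 4 genes overlapped between the groups.

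Other members of the same list fell. Acox2, the oxidase for branched chains and bile acid side chains, had 2.97, 3.66, 3.57 and 4.28 in knockout-dam livers, against 5.28, 5.06, 5.42 and 5.48 in heterozygous-dam livers and fell by 1.69 (adjusted p = 5.32e-04). Cyp4f15, an omega-hydroxylase family member, fell by 1.23, and Decr2, the peroxisomal dienoyl-CoA reductase, fell by 0.87. Decr2 lost its call without the littermates (-0.35, adjusted p = 0.14), where 7 genes of the list rose and 2 fell. Cyp4a14, a fatty acid omega-hydroxylase of the fasted liver, spread over 1.74, 1.38, 3.45 and 4.23 in knockout-dam livers, against 2.86, 3.75, 3.72 and 0.21 in heterozygous-dam livers, and the groups overlapped.

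In mitochondria, 3 of 24 tested genes rose and 4 fell, with a median of -0.01. Acadl, the long-chain acyl-CoA dehydrogenase, had 7.43, 7.35, 7.48 and 7.68 in knockout-dam livers, against 6.93, 6.67, 6.98 and 6.91 in heterozygous-dam livers and rose by 0.61 ± 0.11. Slc25a20, the carnitine-acylcarnitine carrier of the inner membrane, rose by 0.65 ± 0.16, and Cpt1b, the muscle form of the outer carnitine palmitoyltransferase, by 0.89 ± 0.21. Acad11, a dehydrogenase for very long chains, fell by 1.24. Cpt1a, the liver form of carnitine palmitoyltransferase, was at 4.42, 4.39, 5.34 and 5.66 in knockout-dam livers, against 4.79, 4.62, 4.87 and 3.76 in heterozygous-dam livers and was not called (adjusted p = 0.402). The counts follow the littermates: without them 8 genes rose and 1 fell. Without single livers the rises numbered 3 to 5, with 5 without knockout-dam liver 2, and the falls 1 to 7. The falls numbered 1 without knockout-dam liver 1 or 2, 2 without heterozygous-dam liver 4 and 7 without knockout-dam liver 4, and 8 after trimmed-mean scaling. Mean log2 values of the list, relative to the mean of heterozygous-dam livers, were -0.31, -0.21, 0.10 and 0.42 in knockout-dam livers, against 0.09, -0.08, 0.06 and -0.07 in heterozygous-dam livers. The littermates lay below every heterozygous-dam liver and the other 2 fetuses above every one.

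Around this pathway, genes that split or store acyl-CoA gave large rises as well. Acot2 and Acot1, the mitochondrial and cytosolic acyl-CoA thioesterases, are near-identical neighbours, so the split of reads between them is uncertain. Acot2 had 4.82, 5.82, 3.96 and 4.02 in knockout-dam livers, against 2.01, 1.84, 1.94 and 0.79 in heterozygous-dam livers and rose by 3.01 ± 0.38, 8.05-fold. Acot1 had 5.96, 6.27, 6.22 and 6.34 in knockout-dam livers, against 4.68, 4.42, 4.41 and 3.03 in heterozygous-dam livers and rose by 2.06 ± 0.28. For both genes all knockout-dam livers lay above all heterozygous-dam livers, in which liver 4 was the lowest. Acot13, another thioesterase, fell by 0.72. Slc27a2, a very-long-chain acyl-CoA synthetase and transporter, rose by 0.72 ± 0.17 (adjusted p = 0.00348). Of 9 ketone body genes 2 rose and 2 fell. The rises numbered 1 without the littermates, without heterozygous-dam liver 2, 3 or 4 or without knockout-dam liver 3 or 4, and the falls 1 without heterozygous-dam liver 4 or knockout-dam liver 3. Aacs, which uses ketone bodies for lipid synthesis, fell by 0.96.

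Pdk4 and Pdp1 act in opposite directions on the pyruvate dehydrogenase complex, and both rose. Pdk4, the kinase that switches the complex off in fasting, had 6.95, 6.84, 5.79 and 6.98 in knockout-dam livers, against 3.64, 4.17, 5.07 and 3.91 in heterozygous-dam livers and rose by 2.44 ± 0.39. Pdp1, a phosphatase that switches it on, had 1.10, 0.59, 1.58 and 1.71 in knockout-dam livers, against -0.17, -0.58, -0.33 and -0.64 in heterozygous-dam livers and rose by 1.67 ± 0.35. Neither gene overlapped between the groups. Of the 12 tested kinases, phosphatases and subunits 3 rose and 0 fell, again a share of rises near the 26.4% of all genes.

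Lipid droplet genes split as well, with 4 rises and 5 falls among 18 tested. Plin2, whose tested entry in the table is Plin2_2, encodes the main droplet coat of hepatocytes. Its values were 7.39, 7.73, 6.27 and 6.66 in knockout-dam livers, against 5.32, 5.06, 5.30 and 5.16 in heterozygous-dam livers, and it rose by 1.80 ± 0.23 (adjusted p = 9.70e-05). The littermates were the highest of the 8 livers for this gene. Cidec, a droplet fusion protein of fat storage, had 0.74, 0.63, 0.90 and 0.55 in knockout-dam livers, against -0.27, -2.27, -2.66 and -4.51 in heterozygous-dam livers and rose by 3.13 ± 0.75, with a wide spread in the heterozygous-dam livers at these low values. Mgll, the monoacylglycerol lipase, rose by 0.65 ± 0.13, and Pnpla2, the first lipase of droplet breakdown, by 0.90 ± 0.24 (adjusted p = 0.00714). Cideb, the related protein that loads lipoproteins, had 4.24, 4.65, 4.22 and 5.00 in knockout-dam livers, against 6.05, 5.93, 5.94 and 6.17 in heterozygous-dam livers and fell by 1.49. Dgat2, which makes triglyceride, fell by 0.89, and Abhd5, the activator of Pnpla2, by 1.34. The groups did not overlap for any of these 7 genes. Angptl4, a secreted inhibitor of lipoprotein lipase and a PPARA target, had 7.16, 6.98, 7.15 and 7.20 in knockout-dam livers, against 5.63, 5.74, 5.87 and 4.80 in heterozygous-dam livers and rose by 1.61 ± 0.23. Apoc3, another inhibitor of that lipase, fell by 2.43, a call that was lost without the littermates (-1.84, adjusted p = 0.0547).

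Genes of the hepatocyte's own programme fell in the same livers, those of bile acid handling among them. Among 22 tested bile acid genes, covering synthesis and transport, 13 fell and 1 rose, with a median of -0.997 against 0.14 for all genes. Cyp7a1, whose product limits the rate at which cholesterol becomes bile acid (chromosome 4, 6265612 to 6275632, GRCm38.p6), had -3.16, -4.83, 0.66 and 1.07 in knockout-dam livers, against 2.38, 2.18, 2.40 and 2.60 in heterozygous-dam livers. Slc10a1, the sodium-dependent bile acid importer, had 2.32, 2.70, 4.43 and 5.03 in knockout-dam livers, against 6.24, 6.24, 6.39 and 6.40 in heterozygous-dam livers. Slco1b2, an organic anion importer, had -0.82, 0.79, 1.66 and 2.12 in knockout-dam livers, against 3.66, 3.55, 3.39 and 3.60 in heterozygous-dam livers, and Cyp27a1, which starts the alternative synthesis route, had 2.94, 2.63, 4.13 and 4.65 in knockout-dam livers, against 5.03, 5.23, 5.11 and 4.85 in heterozygous-dam livers. For these 4 genes the groups did not overlap, and the littermates lay below the other 2 knockout-dam livers for all 4. Without the littermates the differences were -1.53, -1.59, -1.66 and -0.66, with adjusted p of 0.2, 0.0656, 0.113 and 0.164, and the list held 1 lower and 1 higher call. Slc10a5, a further family member of low level, fell by 3.12, also without a call when the littermates were left out (-2.78, adjusted p = 0.0548). Abcb4, the phospholipid exporter of the bile canaliculus, rose by 0.55 ± 0.14. In bulk tissue, fewer cells of a type and less RNA per cell cannot be told apart.

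Of 26 hepatocyte transcription factors 8 fell and 2 rose, and 4 fell and 1 rose without the littermates, with a median of 0.003 in place of -0.26. Cebpa, a factor of mature hepatocytes and myeloid cells, had 3.69, 3.58, 4.41 and 4.47 in knockout-dam livers, against 5.53, 6.05, 6.00 and 6.11 in heterozygous-dam livers and fell by 1.88 (adjusted p = 2.06e-04). Foxa3 had 2.65, 2.94, 2.81 and 2.24 in knockout-dam livers, against 3.95, 4.11, 4.28 and 4.53 in heterozygous-dam livers and fell by 1.56, and Foxa2, of the same family of pioneer factors, fell by 1.14. Nr1h3, the liver X receptor that senses oxysterols, had 0.88, 1.41, 1.50 and 1.57 in knockout-dam livers, against 3.14, 3.05, 2.93 and 3.12 in heterozygous-dam livers and fell by 1.72. Its difference is also the lowest of the macrophage and Kupffer cell list. Cebpa, Foxa3 and Nr1h3 were also called without the littermates (-1.48, -1.69 and -1.53), and Foxa2 was not (-0.81, adjusted p = 0.0537). Hnf4a, the master regulator of hepatocyte identity, stood at 4.67, 4.53, 5.41 and 5.51 in knockout-dam livers, against 5.40, 5.36, 5.78 and 5.45 in heterozygous-dam livers and was not called (-0.47, adjusted p = 0.136).

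Among secreted products, 9 of 18 acute phase genes fell and 1 rose, with a median of -1.04. Crp, C-reactive protein, had 2.53, 2.93, 4.49 and 4.76 in knockout-dam livers, against 6.31, 6.38, 6.71 and 6.39 in heterozygous-dam livers and fell by 2.77 (adjusted p = 9.64e-04). Steap4, a metalloreductase induced by inflammation, had 0.99, 1.56, 0.93 and 1.21 in knockout-dam livers, against 2.51, 2.44, 2.56 and 2.82 in heterozygous-dam livers and fell by 1.41, and Saa4, a constitutive serum amyloid, fell by 1.52. Hrg, a plasma glycoprotein of hepatocytes outside that list, had 3.77, 3.73, 5.01 and 5.44 in knockout-dam livers, against 6.63, 6.60, 6.51 and 6.51 in heterozygous-dam livers and fell by 2.07. The groups overlapped for none of these 4 genes. Hamp, which encodes hepcidin, the hormone that closes iron export, went the other way, at 8.15, 8.55, 6.45 and 5.71 in knockout-dam livers, against 5.22, 6.60, 4.20 and 4.11 in heterozygous-dam livers, and rose by 2.18 ± 0.61 (adjusted p = 0.00918) although its groups overlapped. Without the littermates the calls of Hrg (-1.34, adjusted p = 0.13) and Hamp (1.05, adjusted p = 0.229) were lost, and 3 of the 18 genes fell and 0 rose. In the same livers 16 of 47 erythroid genes rose and 33 of 45 neutrophil genes fell, and their part in the hepatocyte results was not tested.

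Enzymes of amino acid breakdown, one-carbon metabolism and other nitrogen compounds fell widely. Of 53 tested enzymes of amino acid breakdown and one-carbon metabolism, called the amino acid breakdown list below, 31 fell and 0 rose, with a median of -0.67. Etnppl, which breaks down phosphoethanolamine (chromosome 3, 130617448 to 130635750, GRCm38.p6), had -2.52, -1.47, -1.02 and -0.06 in knockout-dam livers, against 3.37, 3.75, 3.00 and 3.85 in heterozygous-dam livers and fell by 4.76 (adjusted p = 1.53e-04), 27.2-fold. Uox, the urate oxidase of purine breakdown, had 4.39, 5.02, 4.55 and 5.80 in knockout-dam livers, against 7.34, 7.32, 7.38 and 8.23 in heterozygous-dam livers and fell by 2.63. Hal, which opens the histidine pathway, had 1.49, 1.68, 2.36 and 3.10 in knockout-dam livers, against 4.34, 4.27, 4.33 and 4.42 in heterozygous-dam livers and fell by 2.18. Dpys, of pyrimidine breakdown, fell by 1.94. For all 4 the groups were apart, and all 4 kept a call without the littermates, at -4.03, -2.39, -1.61 and -1.72. The list then held 11 falls, and 16 without the 4 libraries of the study that carried transcripts of other tissues, heterozygous-dam livers 1 and 4 among them. Tat, the tyrosine aminotransferase that switches on around birth and in fasting, was spread over 1.72, 0.75, 3.76 and 3.90 in knockout-dam livers, against 3.19, 3.45, 3.47 and -0.73 in heterozygous-dam livers. It was high in knockout-dam livers 3 and 4 and in heterozygous-dam livers 1 to 3 and low in the rest.

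Nitrogen disposal went the same way. Of 15 genes of the urea cycle and ammonia handling, 8 fell and 1 rose. Gls2, the liver glutaminase that feeds ammonia to the cycle, had 3.45, 3.85, 3.63 and 4.24 in knockout-dam livers, against 5.45, 5.45, 5.32 and 5.52 in heterozygous-dam livers and fell by 1.64 (adjusted p = 1.13e-04). Nags, which makes the cycle's obligatory activator, had 2.01, 2.56, 2.81 and 2.58 in knockout-dam livers, against 3.93, 3.65, 3.24 and 4.12 in heterozygous-dam livers and fell by 1.25. Ass1, which joins citrulline and aspartate, had 8.23, 8.32, 8.41 and 8.88 in knockout-dam livers, against 9.27, 9.19, 9.33 and 9.35 in heterozygous-dam livers and fell by 0.83. Glul, glutamine synthetase, which binds ammonia outside the cycle, had 7.51, 7.64, 7.67 and 7.86 in knockout-dam livers, against 6.95, 6.88, 7.17 and 7.09 in heterozygous-dam livers and was the rise of the list (0.65 ± 0.18). Arg1, the last enzyme of the cycle, stood at 7.35, 6.84, 8.57 and 9.01 in knockout-dam livers, against 8.39, 8.66, 8.64 and 8.18 in heterozygous-dam livers and was not called, with the littermates lowest and the other 2 knockout-dam livers within or above the range of the heterozygous-dam livers. The falls of the list numbered 4 without knockout-dam liver 1 and 2 without both littermates, where Ass1 lost its call (-0.64, adjusted p = 0.0688). Car5a, the mitochondrial carbonic anhydrase that supplies bicarbonate for the cycle, was outside the list and fell by 2.59.

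Glycogen genes fell on the synthetic and on the breakdown side. Of 26 genes of gluconeogenesis and glycogen 11 fell and 1 rose, with a median of -0.66. Without the littermates 5 fell and 0 rose, with a median of -0.31. Without knockout-dam liver 4 the list held 16 falls. Gys1, a glycogen synthase, had 0.93, 1.15, 1.10 and 1.28 in knockout-dam livers, against 2.36, 2.45, 2.67 and 3.20 in heterozygous-dam livers and fell by 1.55. Ppp1r3b, which targets the phosphatase that activates glycogen synthase, had 0.81, 1.45, 0.99 and 1.75 in knockout-dam livers, against 3.60, 4.11, 4.28 and 4.67 in heterozygous-dam livers and fell by 2.92. Ugp2, which makes UDP-glucose, had 4.16, 4.25, 4.74 and 5.17 in knockout-dam livers, against 5.81, 5.90, 6.04 and 6.54 in heterozygous-dam livers and fell by 1.49, and Ppp1r3c, a further targeting subunit, fell by 2.13. Pygl, the liver phosphorylase, had 6.08, 6.33, 6.09 and 6.72 in knockout-dam livers, against 7.06, 6.74, 7.07 and 7.45 in heterozygous-dam livers and fell by 0.77. None of the 5 overlapped between the groups, and Ppp1r3c alone lost its call without the littermates (-1.26, adjusted p = 0.0597). The gluconeogenic genes proper varied widely within the groups and were not called. Pck1, which commits carbon to glucose, stood at 5.28, 5.55, 4.53 and 5.97 in knockout-dam livers, against 4.74, 4.77, 5.34 and 0.96 in heterozygous-dam livers, and G6pc, which releases free glucose, at 2.17, 1.40, 4.66 and 6.40 in knockout-dam livers, against 3.22, 3.98, 4.37 and 1.44 in heterozygous-dam livers. Pck1 was low in heterozygous-dam liver 4 alone. G6pc was lower in the littermates than in knockout-dam livers 3 and 4. Fbp1, fructose bisphosphatase, stood at 6.19, 6.29, 7.70 and 8.16 in knockout-dam livers, against 7.79, 7.95, 7.98 and 8.64 in heterozygous-dam livers and was not called (adjusted p = 0.117).

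Drug and hormone metabolism followed, with 11 of 23 genes of cytochrome P450 families 1 to 3 lower and 2 higher (median -0.88), and 5 lower and 2 higher without the littermates. Reads of these families can be split among close copies, so single members are uncertain. Cyp2c70, which makes muricholic acids in mice, had 3.02, 3.01, 3.24 and 3.84 in knockout-dam livers, against 5.36, 5.43, 5.09 and 6.10 in heterozygous-dam livers and fell by 2.22, and Cyp2a5, the coumarin hydroxylase, fell by 2.28. Cyp3a41a, a female-biased member in adult mice, had 1.10, 0.92, -0.16 and 1.31 in knockout-dam livers, against -1.60, -1.87, -1.53 and -1.80 in heterozygous-dam livers and rose by 2.50 ± 0.50. Of 29 genes that handle steroids, retinoids and thyroid hormone 8 fell and 2 rose, while 3 fell and 4 rose without the littermates (median -0.02). Hsd17b6, which oxidises androgens and retinol, had -3.64, -3.21, -3.73 and -1.54 in knockout-dam livers, against 0.28, 1.00, 0.92 and 0.93 in heterozygous-dam livers and fell by 3.81. Adh1, the alcohol dehydrogenase of ethanol and retinol, had 5.48, 5.56, 6.30 and 7.18 in knockout-dam livers, against 8.09, 8.47, 8.29 and 9.39 in heterozygous-dam livers and fell by 2.43. Bco1, which cleaves carotene to retinal, had 2.57, 2.15, 2.65 and 2.82 in knockout-dam livers, against 1.46, 1.15, 1.26 and 1.12 in heterozygous-dam livers and rose by 1.30 ± 0.18. None of these 6 genes overlapped between the groups. Of 89 tested subunits of oxidative phosphorylation 2 rose and 2 fell. Trimmed-mean scaling gave 17 falls and 0 rises among them. There were 8 falls after quantile normalization over the tested genes, 7 without knockout-dam liver 4 and 24 with floxed-dam livers as controls. They numbered 0 without the littermates, with 4 rises, and 0 or 1 without any other single liver, with 0 to 2 rises.

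**Figure D3:**
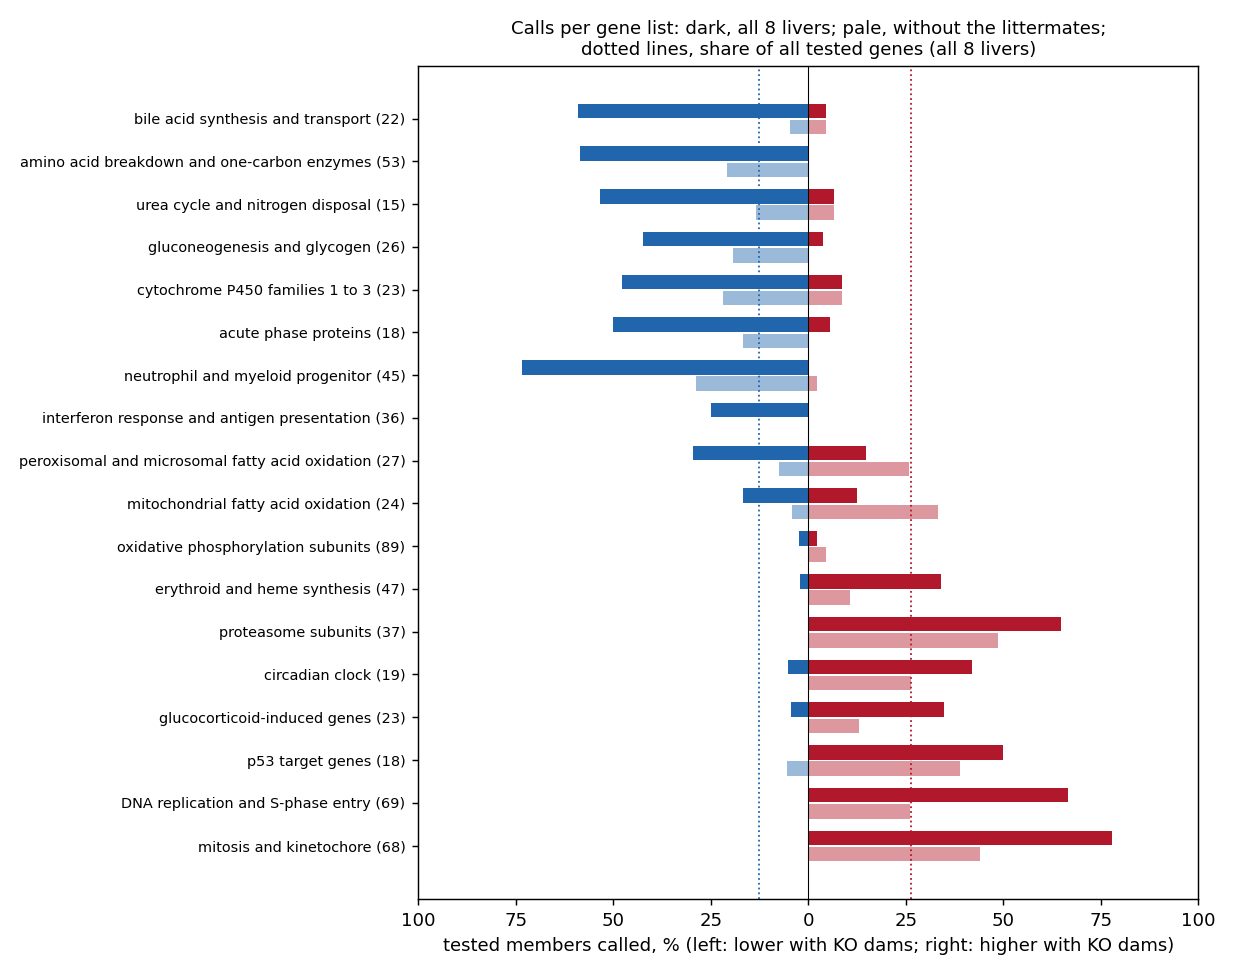
Share of the tested members of 18 gene lists that were called (horizontal axis, percent), with lower calls to the left and higher calls to the right and the number tested in brackets. Dark bars use all 8 livers, pale bars leave out the presumed littermates, and dotted lines mark the shares over all tested genes, 26.4% higher and 12.6% lower. The neutrophil list has 33 of 45 members lower and the mitosis list 53 of 68 members higher, 13 and 30 without the littermates.

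Cell division genes rose together. Of 69 tested genes of DNA replication and S-phase entry 46 rose and 0 fell (median 0.62), and of 68 genes of mitosis and the kinetochore 53 rose and 0 fell (median 0.74). Ccne1, the cyclin that drives entry into S phase, had 5.00, 4.87, 4.57 and 4.59 in knockout-dam livers, against 3.78, 3.43, 3.28 and 3.33 in heterozygous-dam livers and rose by 1.30 ± 0.20. Dbf4, the activating subunit of the kinase that fires replication origins, had 5.07, 4.98, 4.62 and 4.73 in knockout-dam livers, against 3.77, 3.33, 3.14 and 3.82 in heterozygous-dam livers and rose by 1.33 ± 0.21. Orc2 and Orc6, subunits of the origin recognition complex, rose by 0.98 ± 0.15 and 1.02 ± 0.17. E2f7, a repressor at the end of S phase, had 1.82, 1.90, 1.09 and 1.37 in knockout-dam livers, against -0.12, -0.69, 0.01 and -0.19 in heterozygous-dam livers and rose by 1.79 ± 0.34. Cdk1, the kinase of mitotic entry, had 5.89, 5.89, 5.52 and 5.62 in knockout-dam livers, against 4.90, 4.83, 4.56 and 4.90 in heterozygous-dam livers and rose by 0.93 ± 0.14 (adjusted p = 2.15e-04).

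Mitotic genes of later steps gave like values. Cdca3, which triggers mitotic entry, had 6.76, 6.65, 6.42 and 6.32 in knockout-dam livers, against 5.61, 5.41, 5.08 and 5.24 in heterozygous-dam livers and rose by 1.20 ± 0.18. Racgap1, needed for cytokinesis, rose by 1.15 ± 0.19, and Cdca8 and Aurkb, of the chromosomal passenger complex, by 0.77 ± 0.12 and 1.01 ± 0.18. The groups were apart for all 10 genes named so far in these lists, and each was also called without the littermates. Other members were not called: Mcm2, of the replicative helicase, had 5.27, 5.86, 4.58 and 4.93 in knockout-dam livers, against 4.92, 4.35, 4.68 and 4.77 in heterozygous-dam livers (adjusted p = 0.114), and the mitotic kinases Plk1 and Aurka differed by 0.40 ± 0.18 and 0.28 ± 0.17 (adjusted p = 0.0809 and 0.182). Relative to the mean of the heterozygous-dam livers, the mean of the mitosis list was 0.94, 0.78, 0.50 and 0.64 in knockout-dam livers, against 0.14, -0.25, -0.10 and 0.21 in heterozygous-dam livers. The littermates were the highest, and without them 30 genes of the mitosis list and 18 of the replication list rose. With floxed-dam livers as controls 28 and 27 rose. After trimmed-mean scaling the rises numbered 44 and 35, with 1 replication gene lower, and the medians stayed positive at 0.62 and 0.49.

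Promoters of late cell cycle genes carry an element with the letters TTTGAA, the cell cycle homology region, through which they are held silent in resting cells, and often CCAAT boxes. RefSeq promoters (250 bases before to 50 after a start site, GRCm38.p6) were at hand for 42 of the 53 risen mitosis genes, 47 promoters in all. TTTGAA, on either strand, was in 32 of these (68.1%), against 17.9% of all 32851 promoters of the table and 12.1% of those of the tested genes. CCAAT was in 76.6%, against 37.4% of all promoters and 37.7% of those of the tested genes. The 14 promoters of mitosis genes without a call held TTTGAA in 64.3%, close to the share among those that rose. Of 46 promoters of risen replication genes 6 held it. A match is a description of letters, not a site or a cause. The promoter of Cdk1 is printed because this risen mitotic kinase has 2 such matches, in capitals, 71 and 15 bases before the start site (chr10:69352913-69353162, minus strand, GRCm38.p6, 250 bases before the start site, 5′ to 3′).
Cdk1: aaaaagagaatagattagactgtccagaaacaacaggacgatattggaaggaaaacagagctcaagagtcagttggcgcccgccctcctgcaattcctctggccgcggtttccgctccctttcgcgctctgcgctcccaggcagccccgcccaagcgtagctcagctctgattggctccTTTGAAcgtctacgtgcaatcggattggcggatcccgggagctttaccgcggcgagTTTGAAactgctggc

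Of 18 p53 target genes 9 rose and 0 fell. The rises numbered 7 without the littermates, with 1 fall, 5 without the 4 libraries with transcripts of other tissues, and 3 with floxed-dam livers as controls, with 1 fall. Trp53inp1, a p53 cofactor in stress, had 3.14, 3.32, 3.15 and 3.53 in knockout-dam livers, against 1.78, 1.61, 2.57 and 1.63 in heterozygous-dam livers and rose by 1.39 ± 0.28. Cdkn1a, the cell cycle inhibitor p21, had 4.61, 4.56, 4.91 and 5.02 in knockout-dam livers, against 3.25, 4.19, 3.94 and 2.95 in heterozygous-dam livers and rose by 1.19 ± 0.33, without a call when the 4 libraries with transcripts of other tissues were left out (0.71, adjusted p = 0.181). Gtse1, which restrains p53 in late cell cycle phases, rose by 1.15 ± 0.22, and Mdm2, the ligase that degrades p53, had 2.24, 2.47, 2.15 and 2.28 in knockout-dam livers, against 1.92, 1.78, 1.79 and 1.80 in heterozygous-dam livers and rose by 0.46 ± 0.11. Ccng1, one of the most regular p53 targets, was at 1.88, 1.97, 2.19 and 2.17 in knockout-dam livers, against 2.03, 2.02, 2.02 and 2.15 in heterozygous-dam livers and was not called.

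Proteasome subunits rose by small steps. Of 37 tested 24 rose and 0 fell, 18 and 0 without the littermates and 6 and 2 with floxed-dam livers as controls. Psmd4, the ubiquitin receptor of the proteasome, had 6.28, 6.15, 6.41 and 6.42 in knockout-dam livers, against 5.79, 5.76, 5.65 and 5.58 in heterozygous-dam livers and rose by 0.62 ± 0.09 (adjusted p = 1.49e-04). Psmc1, an ATPase of its base, rose by 0.54 ± 0.09, and Psmd8, of its lid, had 6.93, 6.79, 6.51 and 6.51 in knockout-dam livers, against 5.87, 6.06, 6.10 and 5.83 in heterozygous-dam livers and rose by 0.72 ± 0.13. Cct2, of the chaperonin that folds actin and tubulin, had 6.63, 6.62, 6.58 and 6.62 in knockout-dam livers, against 6.04, 5.86, 5.97 and 5.84 in heterozygous-dam livers and rose by 0.69 ± 0.10. After trimmed-mean scaling 13 proteasome subunits rose and 1 fell, and the median of 0.33 was 0.20. Of 80 cytosolic ribosomal proteins 22 rose and 0 fell, a share of rises close to the 26.4% of all genes. All knockout-dam livers lay above all heterozygous-dam livers for 37 of the 80 and below them for 0. The shares over all tested genes were 24.4% and 11.8%. Rpl8, of the large subunit, had 9.98, 10.05, 9.89 and 9.92 in knockout-dam livers, against 9.66, 9.60, 9.56 and 9.46 in heterozygous-dam livers and rose by 0.39 ± 0.08. The ribosomal rises numbered 1 after trimmed-mean scaling, 6 after quantile normalization of the tested genes and 1 without the littermates. They numbered 12 without heterozygous-dam liver 2 or 3, 6 without heterozygous-dam liver 4, and 7 and 11 without knockout-dam livers 1 and 2. The ribosomal median was 0.24, against 0.14 for all genes.

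Blood cell genes moved by lineage. Neutrophil and myeloid progenitor markers numbered 45 tested, of which 33 fell and 0 rose, with a median of -0.85, and 30 of the 45 had all knockout-dam livers below all heterozygous-dam livers. Lyz2, the lysozyme of myeloid cells, had 6.94, 6.92, 7.29 and 7.34 in knockout-dam livers, against 8.70, 8.69, 8.95 and 8.70 in heterozygous-dam livers and fell by 1.64 (adjusted p = 1.49e-04). Mmp8, the collagenase stored in neutrophil granules, had 1.68, 1.67, 2.04 and 2.94 in knockout-dam livers, against 4.31, 4.38, 4.57 and 4.49 in heterozygous-dam livers and fell by 2.36. Ncf1, of the oxidase that makes superoxide, had 2.95, 3.21, 3.48 and 3.67 in knockout-dam livers, against 4.98, 4.95, 5.05 and 4.93 in heterozygous-dam livers and fell by 1.65. Padi4, which citrullinates histones, had -0.09, -0.32, 0.14 and 0.79 in knockout-dam livers, against 1.95, 1.85, 1.70 and 1.47 in heterozygous-dam livers and fell by 1.61, and Csf3r, through which G-CSF drives granulocyte formation, fell by 1.02. The groups overlapped for none of these 5. Granule proteins of the promyelocyte stage had these values: Elane, neutrophil elastase, had 5.87, 5.59, 6.16 and 5.97 in knockout-dam livers, against 6.36, 6.35, 5.96 and 6.22 in heterozygous-dam livers, Mpo, myeloperoxidase, had 6.40, 6.26, 6.25 and 6.27 in knockout-dam livers, against 6.72, 6.47, 6.34 and 6.77 in heterozygous-dam livers, and Prtn3, proteinase 3, had 6.60, 6.23, 6.70 and 6.46 in knockout-dam livers, against 6.45, 6.53, 6.29 and 6.41 in heterozygous-dam livers. None of the 3 was called (adjusted p = 0.114, 0.211 and 0.694). The list held 13 falls and 1 rise without the littermates and 33 falls without the 4 libraries with transcripts of other tissues.

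Other immune genes fell in part. Of 31 macrophage and Kupffer cell genes 10 fell and 2 rose. The rises numbered 0 without heterozygous-dam liver 2 or 4 or knockout-dam liver 2, 3 or 4, and 0 after trimmed-mean scaling, with 14 falls, and without the littermates, with 6 falls. Fcgr3, a receptor for antibodies, had 3.75, 3.85, 4.11 and 4.11 in knockout-dam livers, against 4.79, 4.82, 4.80 and 4.47 in heterozygous-dam livers and fell by 0.77, and Slc40a1, the iron exporter of macrophages, fell by 0.98. Adgre1, the F4/80 antigen that marks macrophages, stood at 3.23, 3.48, 3.26 and 3.38 in knockout-dam livers, against 3.26, 2.82, 3.30 and 3.69 in heterozygous-dam livers and was not called. Among 21 genes of B lymphoid progenitors 6 fell and 1 rose, with Cd72, a B cell coreceptor, down by 2.12 and Vpreb3, of the pre-B cell receptor, down by 1.16, and without the littermates 2 fell and 0 rose. Of 8 tested genes of T cells and natural killer cells 3 fell and 2 rose. Nkg7, a granule protein of killer cells, had 0.45, 0.52, 0.56 and 0.65 in knockout-dam livers, against 2.04, 1.88, 1.29 and 2.12 in heterozygous-dam livers and fell by 1.29. The highest difference of that list was a rise of 3.81, that of Crtam, whose values are given below. Of 36 genes of the interferon response and antigen presentation 9 fell and 0 rose. Isg15, an interferon-induced ubiquitin-like protein, had 1.20, 0.67, 3.39 and 3.38 in knockout-dam livers, against 4.62, 4.17, 4.11 and 4.63 in heterozygous-dam livers. Oasl2, of the antiviral synthetase family, had -2.28, -1.77, -0.36 and 0.17 in knockout-dam livers, against 1.47, 0.61, 1.00 and 0.54 in heterozygous-dam livers, and Irf1 fell by 1.10. All 3 genes were lowest in the littermates and lost their calls without them (adjusted p = 0.135, 0.177 and 0.0791). The interferon falls numbered 0 without the littermates, 5 without knockout-dam liver 1, 4 without knockout-dam liver 2, 15 without knockout-dam liver 4 and 5 without heterozygous-dam liver 1.

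Red cell genes rose in part, with 16 of 47 erythroid and heme synthesis genes higher and 1 lower, a share of rises near that of all genes. Tspan33, a tetraspanin of late erythroid cells, had 7.80, 7.69, 7.52 and 7.27 in knockout-dam livers, against 6.48, 6.22, 6.26 and 6.25 in heterozygous-dam livers and rose by 1.27 ± 0.18. Epor, the erythropoietin receptor, had 5.56, 5.04, 5.58 and 5.34 in knockout-dam livers, against 4.61, 4.49, 4.40 and 4.35 in heterozygous-dam livers and rose by 0.92 ± 0.18. Slc4a1, the anion exchanger band 3, had 10.13, 10.21, 9.61 and 9.74 in knockout-dam livers, against 9.05, 8.49, 9.15 and 9.29 in heterozygous-dam livers and rose by 0.93 ± 0.24. The embryonic globins Hba-x and Hbb-y rose by 1.31 ± 0.40 and 1.53 ± 0.47. Hbb-y lost its call without heterozygous-dam liver 4 (1.25, adjusted p = 0.0562) or knockout-dam liver 1 (1.35, adjusted p = 0.0527), and Slc4a1 (0.68, adjusted p = 0.101) and Hba-x (1.22, adjusted p = 0.0887) without the littermates. Gata1 and Klf1, the master factors of the lineage, differed by -0.16 ± 0.19 and -0.28 ± 0.21 and were not called. The erythroid rises numbered 5 without the littermates, 9 after trimmed-mean scaling and without heterozygous-dam liver 2 or knockout-dam liver 1, and 10 without knockout-dam liver 2. With floxed-dam livers as controls 5 rose and 8 fell, with a median of 0.01 in place of 0.30.

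Of 28 liver endothelial markers 5 were higher and 4 lower. The share of rises was under the 26.4% of all genes, and the share of falls was near their 12.6%. Clec4g, a lectin of mature sinusoidal cells, had 0.93, 0.68, 1.24 and 1.35 in knockout-dam livers, against 3.63, 3.41, 3.10 and 3.29 in heterozygous-dam livers and fell by 2.31. Dnase1l3, a nuclease of the same cells, had 0.77, 0.71, 1.09 and 1.25 in knockout-dam livers, against 1.99, 2.21, 1.59 and 1.95 in heterozygous-dam livers and fell by 0.98. Robo4, a guidance receptor of endothelium, had 2.47, 2.44, 2.22 and 2.49 in knockout-dam livers, against 1.19, 1.12, 1.27 and 0.81 in heterozygous-dam livers and rose by 1.31 ± 0.20. Pecam1, which all endothelium carries, stood at 2.79, 2.84, 2.66 and 2.89 in knockout-dam livers, against 3.06, 2.83, 2.71 and 2.86 in heterozygous-dam livers and was not called. The median of the list, 0.05, turned to -0.07 after trimmed-mean scaling, with 2 rises and 9 falls. The rises numbered 3 without heterozygous-dam liver 2 or knockout-dam liver 1, 2 or 4, and 2 without both littermates.

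Clock and glucocorticoid genes rose in part. Of 19 genes of the circadian clock 8 rose and 1 fell. Ciart, a repressor in the clock's negative limb, had 0.39, 0.42, 1.03 and 1.02 in knockout-dam livers, against -1.37, -1.10, -1.37 and -1.86 in heterozygous-dam livers and rose by 2.14 ± 0.39 (adjusted p = 6.01e-04). Per1, which light and glucocorticoids induce, had 4.53, 4.69, 3.81 and 4.28 in knockout-dam livers, against 2.65, 2.65, 3.19 and 2.65 in heterozygous-dam livers and rose by 1.54 ± 0.34. Nr1d2, a nuclear receptor that represses Arntl, had 2.71, 2.42, 2.32 and 2.61 in knockout-dam livers, against 1.31, 1.17, 1.55 and 1.71 in heterozygous-dam livers and rose by 1.08 ± 0.23. Nr1d1, its paralog, had 4.19, 3.79, 2.07 and 3.24 in knockout-dam livers, against 1.24, 1.23, 0.13 and 2.05 in heterozygous-dam livers and rose by 2.16 ± 0.68, a call that was lost without knockout-dam liver 1 (1.87, adjusted p = 0.0614), heterozygous-dam liver 3 (1.82, adjusted p = 0.0595) or the littermates (1.49, adjusted p = 0.197). Arntl, the activator of the loop, stood at 0.47, 0.73, 0.34 and 1.24 in knockout-dam livers, against 0.80, 0.36, 0.30 and 1.40 in heterozygous-dam livers and was not called. The clock rises numbered 5 without knockout-dam liver 1 and 5 without both littermates. Collection times are not stated in the labels, and time of day was not tested.

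BMAL1, the product of Arntl, and its partner CLOCK bind the letters CACGTG, called an E-box. Among 13 promoters of 7 of the risen clock genes, 2 (15.4%) held it, those of Ciart and Per1, against 7.2% of all promoters and 10.1% of those of the tested genes. Ciart had 3 matches and Per1 had 1, set in capitals, and both are shown because they are the risen clock genes with a match (Ciart at chr3:95882229-95882478, minus strand, and Per1 at chr11:69098699-69098948, plus strand, GRCm38.p6, RefSeq, 250 bases before the start site, 5′ to 3′).
Ciart: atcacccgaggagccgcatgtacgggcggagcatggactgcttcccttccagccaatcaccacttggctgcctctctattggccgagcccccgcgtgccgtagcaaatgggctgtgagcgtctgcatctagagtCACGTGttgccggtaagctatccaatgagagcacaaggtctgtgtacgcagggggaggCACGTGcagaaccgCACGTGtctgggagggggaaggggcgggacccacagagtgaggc
Per1: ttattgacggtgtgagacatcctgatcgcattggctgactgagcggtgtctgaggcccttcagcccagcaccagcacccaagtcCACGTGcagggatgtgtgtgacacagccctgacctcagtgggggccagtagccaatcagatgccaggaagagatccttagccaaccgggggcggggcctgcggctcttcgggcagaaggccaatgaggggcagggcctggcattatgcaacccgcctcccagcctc

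For the fatty acid genes, the element of PPARA and its partner was searched as AGGTCANAGGTCA with up to 2 mismatches on either strand. It was in 1 of 9 promoters of the risen oxidation and thioesterase genes (11.1%), that of Slc25a20, and in 1 of 13 of the fallen ones (7.7%), that of Acox2, against 3.9% of all promoters and 3.2% of those of the tested genes. The other promoters of these genes, that of Ehhadh among them, did not hold these letters in this window.

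Of 23 glucocorticoid-induced genes 8 rose and 1 fell, with a median of 0.61. Sgk1, a kinase induced by serum and glucocorticoids, had 3.88, 4.00, 3.67 and 3.82 in knockout-dam livers, against 1.94, 2.09, 1.95 and 1.72 in heterozygous-dam livers and rose by 1.92 ± 0.32. Klf11, a factor listed apart from these, had 3.76, 4.01, 3.23 and 3.63 in knockout-dam livers, against 1.84, 2.13, 1.93 and 1.31 in heterozygous-dam livers and rose by 1.85 ± 0.31. Yet Fkbp5, among the most direct glucocorticoid targets, stood at 4.71, 4.28, 5.48 and 5.72 in knockout-dam livers, against 5.18, 5.01, 5.29 and 4.71 in heterozygous-dam livers, and Tsc22d3, another, at 3.38, 3.11, 3.72 and 3.69 in knockout-dam livers, against 3.31, 3.40, 3.23 and 2.44 in heterozygous-dam livers, and neither was called. The list held 3 rises without the littermates and 3 without the 4 libraries with transcripts of other tissues. Txnip, which binds thioredoxin and follows glucose and fasting, had 8.86, 8.46, 8.74 and 9.66 in knockout-dam livers, against 7.49, 6.45, 7.18 and 7.02 in heterozygous-dam livers and rose by 1.90 ± 0.51, and Gadd45b, a stress gene of liver growth, had 5.22, 6.09, 4.45 and 5.15 in knockout-dam livers, against 3.23, 4.00, 3.16 and 2.71 in heterozygous-dam livers and rose by 1.95 ± 0.40.

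Of 24 genes of the fetal liver and imprinted growth list 8 rose and 3 fell, with a median of 0.27. Without the littermates 3 rose and 2 fell, with floxed-dam livers as controls 4 rose and 2 fell, and without heterozygous-dam liver 2 the median was -0.003. Lin28b, which blocks maturation of let-7 microRNAs, had 1.21, 1.10, 1.11 and 1.19 in knockout-dam livers, against -0.79, -1.40, -0.79 and -0.93 in heterozygous-dam livers and rose by 2.13 ± 0.25 (adjusted p = 5.86e-05), with 4 closely spaced knockout-dam livers. Igf2bp2 had 3.10, 3.08, 3.02 and 3.21 in knockout-dam livers, against 2.53, 1.95, 2.48 and 2.63 in heterozygous-dam livers and rose by 0.71 ± 0.20, and Igf2bp1 rose by 0.66 ± 0.20, both binding proteins of Igf2 mRNA and let-7 targets. Hmga2, a chromatin protein of growing tissue, rose by 1.03 ± 0.30, and Dlk1, an imprinted hepatoblast marker, had 7.92, 7.99, 7.73 and 7.80 in knockout-dam livers, against 7.56, 6.98, 7.22 and 7.06 in heterozygous-dam livers and rose by 0.66 ± 0.20. Of these 5 genes, Igf2bp1 (0.68), Hmga2 (0.91) and Dlk1 (0.57) lost their calls without the littermates, with adjusted p of 0.065, 0.0903 and 0.108. Afp, the fetal albumin, had 13.82, 13.84, 13.89 and 14.04 in knockout-dam livers, against 13.40, 12.74, 13.33 and 13.84 in heterozygous-dam livers and was called higher by 0.57 ± 0.19, a call that was lost without knockout-dam liver 4 (0.52, adjusted p = 0.0535), heterozygous-dam liver 2 (0.38, adjusted p = 0.089) or the littermates (0.64, adjusted p = 0.0597).

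In the growth hormone and insulin-like growth factor axis 7 of 22 genes fell and 2 rose. The falls numbered 4 without the littermates, and the rises 0 without both or either of them and without heterozygous-dam liver 2. Ghr, the growth hormone receptor, had 1.91, 2.43, 2.17 and 2.55 in knockout-dam livers, against 3.04, 2.86, 3.25 and 3.54 in heterozygous-dam livers and fell by 0.91. Cish, a feedback inhibitor induced by that receptor, had 0.98, 1.46, 1.22 and 1.80 in knockout-dam livers, against 2.40, 3.29, 2.37 and 3.35 in heterozygous-dam livers and fell by 1.49. Igfals, the liver protein that holds IGF1 in plasma, fell by 0.98, and Grb10, an imprinted brake on insulin signalling, had 5.90, 6.29, 6.05 and 6.58 in knockout-dam livers, against 7.28, 6.79, 7.75 and 8.12 in heterozygous-dam livers and fell by 1.28. The groups were apart for these 4, and Igfals alone lost its call without the littermates (-0.66, adjusted p = 0.0759). The ligands themselves were not called, with Igf1 at -0.06, 0.39, 0.34 and 0.37 in knockout-dam livers, against 0.18, -0.06, -0.35 and 0.46 in heterozygous-dam livers and Igf2 at 9.07, 9.38, 8.95 and 9.30 in knockout-dam livers, against 9.29, 8.88, 9.37 and 9.64 in heterozygous-dam livers.

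Organelle genes of lipid and metabolite traffic were called in both directions. Of 16 peroxins 5 rose and 2 fell, shares near the 26.4% and 12.6% of all genes. After trimmed-mean scaling 5 peroxins fell. Pex16 and Pex3, which place proteins in new peroxisomal membrane, rose by 1.18 ± 0.17 and 0.90 ± 0.14. Pex6 and Pex26, the export ATPase and its anchor, fell by 1.40 and 1.56. All 4 had separate groups: Pex16 was at 4.46, 4.61, 4.78 and 4.85 in knockout-dam livers, against 3.67, 3.63, 3.21 and 3.46 in heterozygous-dam livers, and Pex6 at 2.24, 2.63, 2.03 and 2.29 in knockout-dam livers, against 3.60, 3.60, 3.73 and 3.84 in heterozygous-dam livers. Of 36 mitochondrial carriers of the Slc25 family 14 rose and 6 fell. Slc25a16, the coenzyme A carrier, had 2.47, 2.28, 2.74 and 2.86 in knockout-dam livers, against 1.60, 1.40, 1.66 and 1.57 in heterozygous-dam livers and rose by 1.03 ± 0.14. Slc25a39, the glutathione carrier, rose by 0.69 ± 0.13, and Slc25a11, which exchanges oxoglutarate for malate, had 3.96, 3.95, 4.58 and 4.66 in knockout-dam livers, against 5.33, 5.42, 5.28 and 5.28 in heterozygous-dam livers and fell by 1.04. Slc25a11 lost its call without the littermates (-0.71, adjusted p = 0.057), where the carrier falls numbered 0. The carrier falls numbered 2 without knockout-dam liver 1, and the rises 9 without heterozygous-dam liver 2.

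Further genes stood out by the size of their change. Tnfrsf12a, the receptor of the growth cytokine TWEAK, had 6.42, 6.23, 5.81 and 5.68 in knockout-dam livers, against 2.96, 4.08, 3.61 and 3.26 in heterozygous-dam livers and rose by 2.56 ± 0.41. Insc, an adaptor of spindle orientation, had 4.25, 4.51, 3.51 and 3.86 in knockout-dam livers, against 1.40, 1.25, 1.00 and 1.88 in heterozygous-dam livers and rose by 2.65 ± 0.46. Car3, a carbonic anhydrase of liver and fat, had 4.37, 5.25, 4.08 and 3.75 in knockout-dam livers, against 2.74, 0.80, 1.38 and 2.73 in heterozygous-dam livers and rose by 2.45 ± 0.51. Tubb2a, a beta tubulin, had 6.92, 6.93, 6.60 and 6.74 in knockout-dam livers, against 4.82, 4.71, 4.69 and 4.68 in heterozygous-dam livers and rose by 2.07 ± 0.35. Timp1, an inhibitor of matrix proteases, had 0.87, 0.98, 1.01 and 0.73 in knockout-dam livers, against -0.87, -1.12, -1.23 and -2.07 in heterozygous-dam livers and rose by 2.22 ± 0.32. Cirbp, an RNA-binding protein induced by cold, rose by 1.82 ± 0.34. Crtam, a surface receptor of cytotoxic cells, had 0.65, 0.16, 0.50 and 0.34 in knockout-dam livers, against -2.77, -2.03, -5.55 and -3.25 in heterozygous-dam livers and rose by 3.81 ± 0.82. Its spread was wide in the heterozygous-dam livers at these low values, so the size of this rise is uncertain.

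Taf9, a subunit of the basal transcription machinery, had 5.70, 5.60, 5.64 and 5.79 in knockout-dam livers, against 4.96, 4.85, 4.69 and 4.82 in heterozygous-dam livers and rose by 0.85 ± 0.11 (adjusted p = 8.83e-05). Gjb1, the gap junction protein of hepatocytes, had 4.62, 5.05, 4.88 and 5.42 in knockout-dam livers, against 6.92, 6.74, 6.86 and 7.11 in heterozygous-dam livers and fell by 1.91 (adjusted p = 1.07e-04). Xbp1, the secretory stress factor, had 4.85, 5.04, 5.03 and 4.92 in knockout-dam livers, against 5.63, 5.91, 5.99 and 6.38 in heterozygous-dam livers and fell by 1.02, and Nrn1, the neuritin gene, fell by 1.27. The groups overlapped for none of these 4 genes, nor for the 7 before them.

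The knockout-dam group was not uniform. Across all genes the first principal component of the 8 livers (50.9% of the variance) put the knockout-dam livers at -47.8, -44.7, -25.5 and -25.2, against 30.5, 41.3, 33.1 and 38.2 in heterozygous-dam livers. Deviations from the group mean correlated at 0.21 between the littermates and at 0.30 between livers 3 and 4, and at -0.71 to -0.56 across these pairs, over 11634 genes that are not independent. In heterozygous-dam livers, which share no number, they correlated at 0.13 between livers 1 and 2 and at 0.06 between livers 3 and 4. Across these pairs the values were -0.62 to -0.39. Deviations from a mean of 4 sum to 0, which by itself pulls such correlations below 0. Both littermates lay below both other knockout-dam livers for 46.7% of all tested genes with a value in the 8 livers and above them for 15.3%. Among genes called lower the shares were 60.1% and 3.11%, and among genes called higher 30.4% and 30.6%. The lists of hepatocyte function were lowest in the littermates. Relative to the mean of the heterozygous-dam livers, the mean of the amino acid breakdown list was -1.29, -1.01, -0.70 and -0.30 in knockout-dam livers, against 0.10, -0.03, -0.02 and -0.06 in heterozygous-dam livers. The bile acid list stood at -1.79, -1.52, -0.79 and -0.33, against 0.04, -0.34, 0.01 and 0.28. All 4 knockout-dam livers lay below the heterozygous-dam livers for amino acid breakdown, and for bile acids liver 4 reached the lowest heterozygous-dam liver. Proteasome subunits were alike in all 4 knockout-dam livers, at 0.27, 0.27, 0.31 and 0.36, against 0.07, 0.01, -0.02 and -0.06. Without the littermates 1994 of the 3117 genes called higher and 508 of the 1483 called lower kept their calls, and 0 of the 4600 changed sign.

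**Figure D4:**
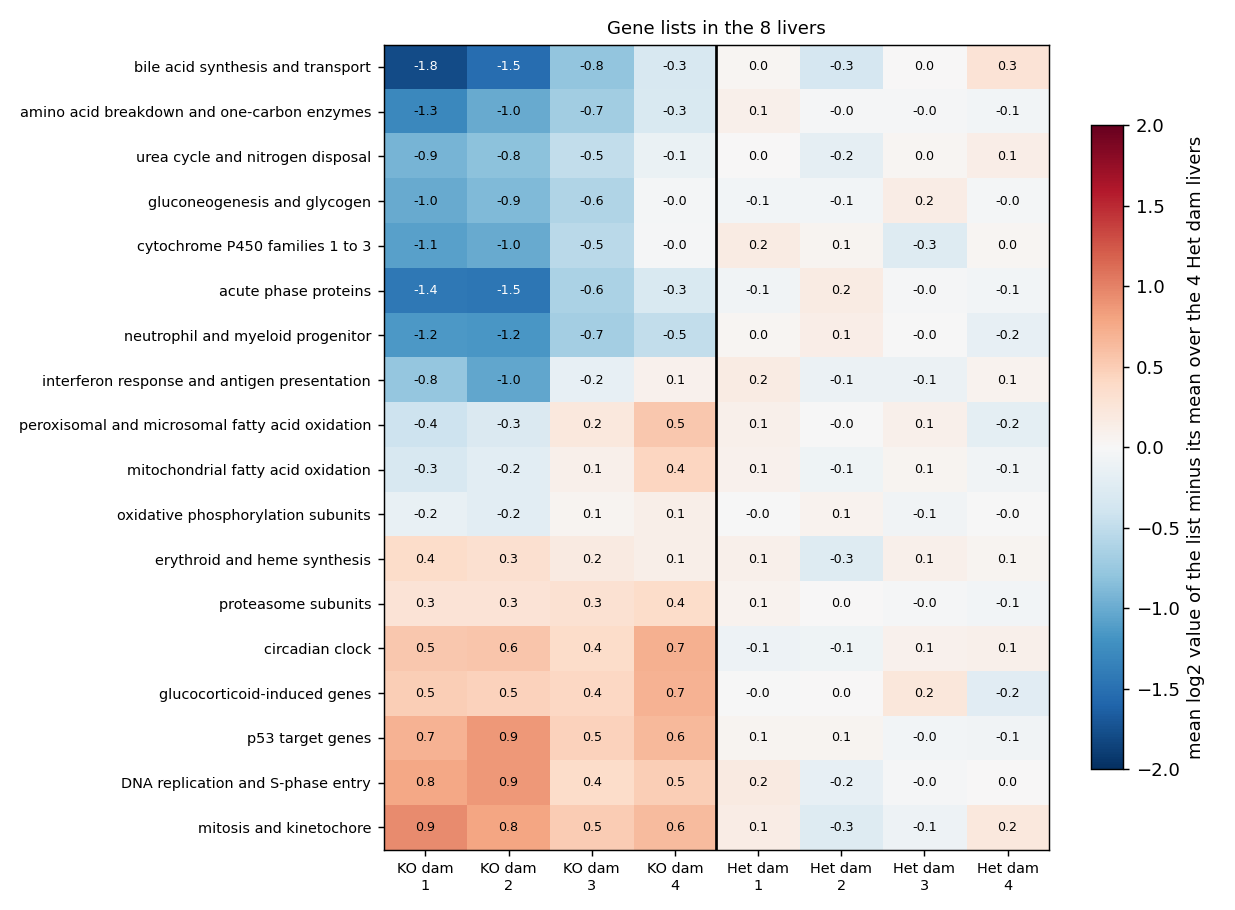
Mean log2 value of 18 gene lists in each of the 8 livers, minus the mean over the 4 heterozygous-dam livers (colour and printed number), with knockout-dam livers 1 to 4 on the left of the line. The bile acid list stands at -1.8 and -1.5 in the littermates and at -0.8 and -0.3 in the other knockout-dam livers, while the proteasome list lies between 0.3 and 0.4 in all 4.

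The comparison was also set against other conditions of the study. Fetuses of dams without Cpt2 in the liver, which cannot oxidise long-chain fatty acids there, were compared with fetuses of floxed dams, 4 livers each, and no library is shared with the Ppara groups. The fetuses of both groups are labelled wild type. Floxed-dam livers 3 and 4 also share a number in their descriptions. Of 11805 genes 0 were called by limma for the maternal Cpt2 knockout, 1311 at an unadjusted p under 0.05. The maternal Cpt2 difference was positive for 83.5% of the genes called higher with Ppara knockout dams, against 48.9% of all tested genes, and negative for 91.8% of those called lower, against 51.1%. These genes are not independent. For the bile acid and amino acid lists, floxed-dam livers 3 and 4 were the highest of both groups. The bile acid mean was 2.62, 2.71, 3.62 and 3.56 in floxed-dam livers, against 2.58, 3.01, 3.05 and 2.34 in Cpt2 knockout-dam livers. The amino acid mean was 4.36, 4.32, 5.13 and 5.07, against 4.54, 4.79, 4.82 and 4.43. The part of that floxed-dam pair in these shares was not tested. Median sizes were 0.67 for the maternal Ppara knockout and 0.16 for the maternal Cpt2 knockout over the genes higher, and -0.84 and -0.32 over the genes lower, where the genes were chosen on the Ppara comparison.

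The difference between the 2 maternal effects was called by limma for 0 of 11798 genes (smallest adjusted p 0.0992), while 2343 (19.9%) had an unadjusted p under 0.05. Without Cpt2 knockout-dam liver 4 it was called for 420 genes, and without Ppara knockout-dam livers 3 and 4 for 43. Ehhadh differed by 3.45 with Ppara knockout dams and 1.40 with Cpt2 knockout dams (unadjusted p of the difference 2.45e-05). Plin2_2 differed by 1.80 and 0.11 (5.47e-05), Lin28b by 2.13 and 0.22 (2.70e-05), and Gls2 by -1.64 and -0.14 (8.93e-05). Other genes were closer in size, among them Cidec at 3.13 and 2.47, Pnpla2 at 0.90 and 1.10 and Gadd45b at 1.95 and 1.64. The medians of the mitosis list were 0.74 and 0.10, those of the neutrophil list -0.85 and -0.17, and those of the glucocorticoid list 0.61 and 0.41.

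**Figure D5:**
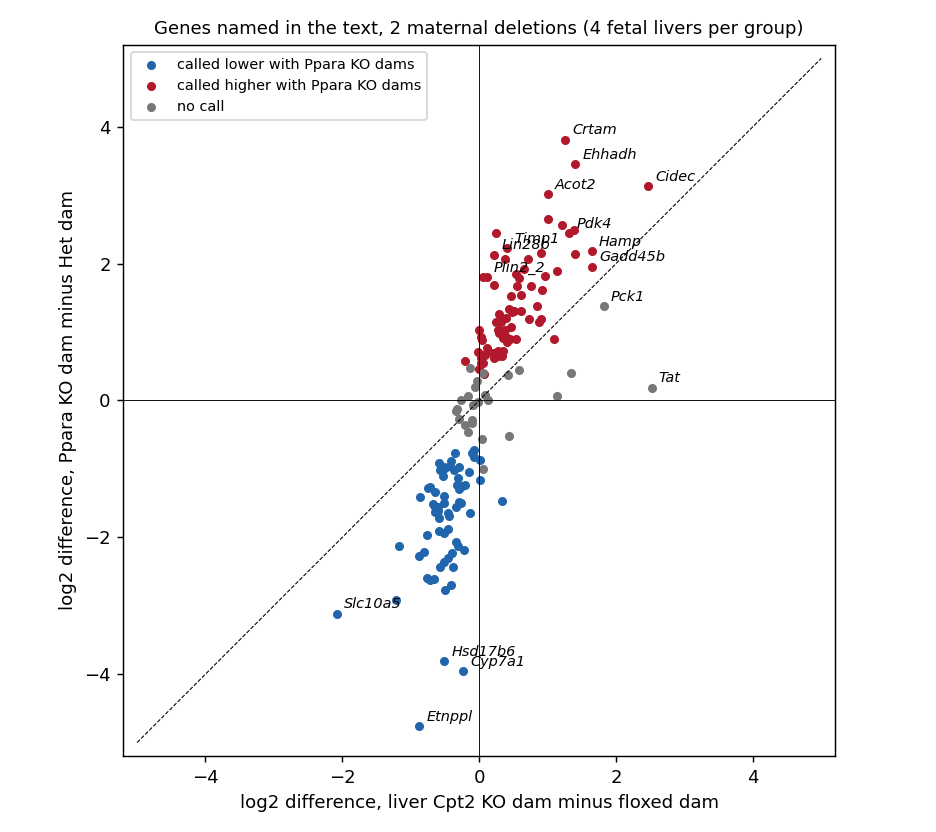
Log2 difference with liver Cpt2 knockout dams against floxed dams (horizontal axis) and with Ppara knockout dams against heterozygous dams (vertical axis) for the genes named in the text, 4 fetal livers per group. Red and blue points are genes called higher and lower with Ppara knockout dams, grey points have no call, and the dashed line marks equal differences. Cidec lies near that line and Ehhadh and Etnppl far from it.

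Knockout fetuses of knockout dams bear on the fetal copy of Ppara. They were set against the same knockout-dam livers of heterozygous fetuses, so the comparison shares those 4 libraries. No description number is shared between the knockout and the heterozygous fetuses, so fetal genotype cannot be told apart from dam or litter. In it 94 of 11805 genes (0.796%) were lower and 3 higher. Knockout fetuses 1 and 2 also share a number in their descriptions, and with shared numbers as a random block 73 genes were called in place of 97. Ehhadh was lower by 4.63 in the knockout fetuses (adjusted p = 1.66e-09) and Acaa1b by 4.46, and Plin2_2 and Pdk4 differed by -1.70 and -3.35. Cpt1a, which the dam's genotype left without a call, was lower by 2.31 in the knockout fetuses. Of the 27 peroxisomal and microsomal genes 13 were lower. Of the 22 bile acid, 45 neutrophil and 68 mitosis genes 0 were called, which is near the 0.796% of all genes and does not show equal levels. The medians of these 3 lists were -0.05, 0.26 and -0.03 in this comparison. Against the heterozygous-dam livers, which are shared with the main comparison, the knockout fetuses had 2053 genes higher (17.4%) and 863 lower (7.31%). There the mitosis list had 50 rises, the proteasome list 25, the neutrophil list 19 falls and the amino acid list 24. Ehhadh stood at -1.18 in that comparison (adjusted p = 0.00423), Cdk1 at 0.83, Lyz2 at -0.90 and Etnppl at -4.42.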

How the data were processed

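Poly(A) RNA of snap-frozen fetal livers was sequenced as stranded libraries with single reads of 75 bases, per the labels' protocols. The authors deposited 1 table of log2 values for 45802 gene entries in 20 libraries, 5 groups of 4. Neither the labels nor the table name the quantity before the logarithm or the counting rule, and the equal quantiles of the 20 columns show quantile normalization. The submitters' processing notes name bcl2fastq 2.17.1.14, Partek 7.0 and GRCm38.p6. Depth is unknown, and blank cells were kept as no value.

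Genes with a log2 value of at least 0 in at least 4 libraries were fitted with limma 3.58.1 in R 4.3.3, with 1 mean per group, a mean-variance trend and all 20 libraries, and adjusted by Benjamini-Hochberg over all tested genes. The p-values measure the spread between these samples, and littermates may make it too small. Genes were named by rule: a fixed panel, the largest and the best-supported changes, and called and uncalled members of gene lists. The members and lists were chosen with earlier results of these data known. Alternatives were other pseudocounts, filters, scalings, covariates and left-out libraries. Promoter sequences came from RefSeq. Some genes named by the rule are not reported here.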

Additional observations from a re-analysis of the deposited data

Results flagged for a closer look

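Within groups of 4, 19 of the 332 gene and group combinations looked at (166 genes in both groups) had a liver far from the other 3, where chance gives about 1 in 20. Heterozygous-dam liver 4 was the lowest for Pck1 (0.96), Tat (-0.73), Acot1 (3.03), Acot2 (0.79) and Fcgr3 (4.47) and the highest for Uox (8.23) and Ccng1 (2.15). This liver also had 20 of 31 muscle markers at a log2 value of at least 0, and the part of those transcripts in these values was not tested. Among the other heterozygous-dam livers, liver 1 was low for Hsd17b6 (0.28) and high for Mdm2 (1.92) and Tspan33 (6.48), and liver 3 was high for Lyz2 (8.95) and Per1 (3.19).

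Knockout-dam liver 4 was high for Ehhadh (7.71) and low for Slc25a39 (7.64). Knockout-dam liver 3 was low for Pdk4 (5.79) and Cct2 (6.58), liver 2 for Abcb4 (4.49) and liver 1 for Igf1 (-0.06), and liver 1 was high for Mpo (6.40).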

How the results depend on the processing

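No gene called higher or lower changed sign with another pseudocount, filter, scaling, covariate or block or with livers left out. Calls of lower genes numbered 1483, against 2228 after trimmed-mean scaling and 524 without the presumed littermates. Leaving out single livers gave 2513 to 2925 higher and 950 to 1630 lower calls (950 without knockout-dam liver 1). Chosen after seeing the data, leaving out the 4 libraries with transcripts of other tissues gave 820 lower calls. Floxed-dam livers as controls, also chosen after seeing the data and from fetuses labelled wild type, gave 1789 higher calls, with 101 of the 4600 genes of opposite sign. Ccng1 was then at -0.48 (limma adjusted p = 0.0178). The difference from the maternal Cpt2 effect, with 0 calls, had 2 with a pseudocount of 4, 1 without the littermates, 1 without the 4 libraries, 43 without knockout-dam livers 3 and 4, and 0 to 420 without single livers. The fetal comparison had 97 calls, 63 with only the compared libraries and 75 to 147 without single livers. Of the 166 named genes, 25 lost a call without the littermates and 11 with floxed-dam controls. The cause of these moves was not tested.

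Replicate numbers did not pair the samples: deviations of same-numbered livers correlated at -0.16, -0.12, -0.23 and -0.08. The fit with the replicate block gave 3224 higher and 1457 lower calls, and 102 for the fetal comparison. Treating presumed littermates as a random block gave 2698 and 1070, and 73 for the fetal comparison. Depth is unknown, so the counting noise of low values could not be given.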
